A study of Mus musculus with 16 samples.

Results

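The SLC25 family of solute carriers was examined in mouse fallopian tubes exposed in vitro to progesterone. The genes were taken by their symbol on the array, SLC25A followed by a number. Of 40 such genes with 59 probes, 35 genes with 47 probes passed the detection level on 13 or more of the 16 arrays (a detection p-value below 0.5, which means brighter than the median negative control), and the probe with the brightest mean signal stood for each gene. These 35 were among 12426 genes kept by the same rule. The selection used the gene's name and its brightness over all arrays, not a difference between groups, but the family was chosen with earlier results of these arrays known, Slc25a33 among them.

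SLC25 proteins are membrane carriers, most of them in the inner membrane of the mitochondrion, and each exchanges or imports a small set of solutes. They bring ADP and phosphate to the ATP synthase, move carboxylic acids, amino acids and acylcarnitines between cytosol and matrix, and supply the matrix with coenzymes, iron and nucleotides. Slc25a33 and Slc25a36 carry pyrimidine nucleotides, which the mitochondrion needs to make its own DNA and RNA, and Slc25a33 is known as a gene that insulin-like growth factor I and mTOR signalling can induce. In the fallopian tube, mitochondria serve the beating cilia and the contracting smooth muscle.

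The tubes came from immature female C57BL/6N mice of 3.5 to 5 weeks that had received no hormones. The whole tube was opened, cut into pieces and kept in handling medium with 100 nmol/L progesterone and 0.01% ethanol, or with 0.01% ethanol alone as the control. Each array held RNA of 6 pooled tubes. There were 4 controls and 4 progesterone samples after 20 min and the same after 2 h, which made 4 pairs at each time, and the pairs are called here by the codes of their labels (27n, 26n, 12n and 22ob at 20 min; 6d, 19n, 30o and 15o at 2 h). The samples were cultured pieces of a tissue of many cell types and no hormone-primed or adult tubes were measured. For all genes below, fewer cells of a type and less RNA per cell cannot be told apart. The samples of 20 min and of 2 h came from different animals, so that time in culture and the set of samples cannot be told apart either.

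Values are log2 of the quantile-normalized signal intensity, and changes are differences of these values with their standard error. Between 13222 and 14267 of the probes had a detection p-value under 0.05 on each array, and the arrays correlated with each other at 0.961 to 0.996. Summed markers of smooth muscle differed between samples of 1 group: 9 such genes averaged 9.17 to 11.24 in the controls of 2 h, and progesterone less control was -0.09 in pair 6d, -0.97 in 19n, -0.35 in 30o and 1.34 in 15o. Markers of ciliated epithelium (8 genes) averaged 9.55 to 10.23 and those of secretory epithelium (8 genes) 11.16 to 11.72 over the 16 arrays, while 4 genes of ovary stayed at 6.90 to 7.08 and 6 of skeletal muscle at 6.88 to 7.04, near the signal of the dimmest carriers.

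The windows upstream of 3 carriers are shown first, because Slc25a33, Slc25a25 and Slc25a28 are the genes whose signal was clearly higher after 2 h in culture. They are the 250 bases before the annotated start in RefSeq on GRCm38.p6, read 5′ to 3′ on the strand of the gene. Capitals mark the letters of motifs found by a search of both strands, and 27 of the 35 carriers had a window by symbol. The window of Slc25a33 is chr4:149774268-149774517 on the minus strand, that of Slc25a28 is chr19:43674882-43675131 on the minus strand, and Slc25a25 has 3 annotated starts on the minus strand, at chr2:32451471-32451720, chr2:32431152-32431401 and chr2:32424067-32424316.
Slc25a33: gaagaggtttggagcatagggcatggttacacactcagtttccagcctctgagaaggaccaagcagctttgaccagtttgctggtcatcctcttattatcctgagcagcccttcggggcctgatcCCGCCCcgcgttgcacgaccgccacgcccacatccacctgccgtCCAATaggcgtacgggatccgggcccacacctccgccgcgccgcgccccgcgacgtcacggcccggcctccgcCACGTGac
Slc25a28: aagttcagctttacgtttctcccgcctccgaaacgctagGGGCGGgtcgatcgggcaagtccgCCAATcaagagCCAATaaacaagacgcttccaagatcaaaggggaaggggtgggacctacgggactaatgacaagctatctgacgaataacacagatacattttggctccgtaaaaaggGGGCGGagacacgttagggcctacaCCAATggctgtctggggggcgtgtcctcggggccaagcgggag
Slc25a25 start 1: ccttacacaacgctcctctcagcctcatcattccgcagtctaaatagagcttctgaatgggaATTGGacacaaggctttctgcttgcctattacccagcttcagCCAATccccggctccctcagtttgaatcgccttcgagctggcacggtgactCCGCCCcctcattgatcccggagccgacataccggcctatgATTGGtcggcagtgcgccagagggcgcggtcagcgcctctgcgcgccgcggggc
Slc25a25 start 2: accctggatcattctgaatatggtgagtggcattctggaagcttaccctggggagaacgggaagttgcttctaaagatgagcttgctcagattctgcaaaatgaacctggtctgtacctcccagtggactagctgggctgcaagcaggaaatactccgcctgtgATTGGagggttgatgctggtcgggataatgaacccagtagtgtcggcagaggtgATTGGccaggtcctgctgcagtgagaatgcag
Slc25a25 start 3: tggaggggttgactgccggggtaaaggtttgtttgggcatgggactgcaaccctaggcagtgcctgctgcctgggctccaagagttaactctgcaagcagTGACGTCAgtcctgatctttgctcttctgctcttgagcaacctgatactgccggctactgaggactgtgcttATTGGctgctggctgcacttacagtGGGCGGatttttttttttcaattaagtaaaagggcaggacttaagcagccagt

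There were 9 motifs in the search: the core of the progesterone and glucocorticoid response element (ACANNNTGT), its 6-letter part TGTTCT, the cyclic AMP response element (TGACGTCA), the AP-1 site (TGANTCA), the E-box (CACGTG), the core of the NRF1 site (CGCATGCG), the GC box (GGGCGG), the TATA box (TATAAA) and the CCAAT box, which is searched by the letters of its name. The 6-letter part can overlap the longer core of the response element, and a palindrome was counted once. The window of Slc25a33 held an E-box that ends 3 bases before the start, a CCAAT box and a GC box, and neither form of the steroid response element. Slc25a28 held 2 GC boxes and 3 CCAAT boxes, and start 3 of Slc25a25 held a cyclic AMP response element. The window of Slc25a36, the other pyrimidine nucleotide carrier, held an E-box and a cyclic AMP response element. An E-box was found in 6.02% of all 32851 windows and in 7 of the 35 windows of the carriers, and the cyclic AMP response element in 1.55% of all windows and in 2 of the carriers'. ACANNNTGT was found in 5.84% of all windows and in 1 of the 35, TGTTCT in 16.1% and in 2, the GC box in 32.7% and in 27, the CCAAT box in 33.8% and in 17, TATAAA in 12.4% and in 1, TGANTCA in 6.75% and in 2, and CGCATGCG in 1.55% and in 0. The 27 carriers with a window had 35 windows in all, since 5 of them have several annotated starts. A match gives letters and not a bound site, and a window without a match says only that these letters are not in it.

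The 35 carriers covered nearly the whole range of signal. Brightness depends on the probe as well as on the RNA, so the order is one of signals and not of transcript numbers. The brightest was Slc25a5, an ADP/ATP carrier, with 12.66 to 13.11 over the 16 arrays. It was followed by Slc25a3, the phosphate carrier, at 11.27 to 11.78, Slc25a11, which exchanges oxoglutarate for malate, at 10.25 to 10.99, Slc25a17, a peroxisomal member that carries coenzyme A and adenine nucleotides, at 10.02 to 10.79, and Slc25a38, the glycine carrier of haem synthesis, at 9.89 to 10.55. The dimmest were Slc25a27, a relative of the uncoupling proteins, at 6.69 to 6.997, Slc25a46, a protein of the outer membrane, at 6.81 to 7.06, and Slc25a22, a glutamate carrier, at 6.83 to 7.19. Slc25a27 had a detection p-value under 0.05 on 1 array only, and 5 carriers in all had it on fewer than 8.

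The 5 genes that were not kept were Slc25a4, Slc25a21, Slc25a31, Slc25a40 and Slc25a41, with mean signals of 6.76 to 6.83 over their 8 probes. Slc25a4, the ADP/ATP carrier of heart and skeletal muscle, passed the detection level on 9 arrays and ranged from 6.74 to 7.02. Of the ADP/ATP carriers, Slc25a5 was therefore the only one with a kept probe. The share of a close relative in a probe's signal could not be examined, because probe sequences were not used here.

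**Figure D1:**
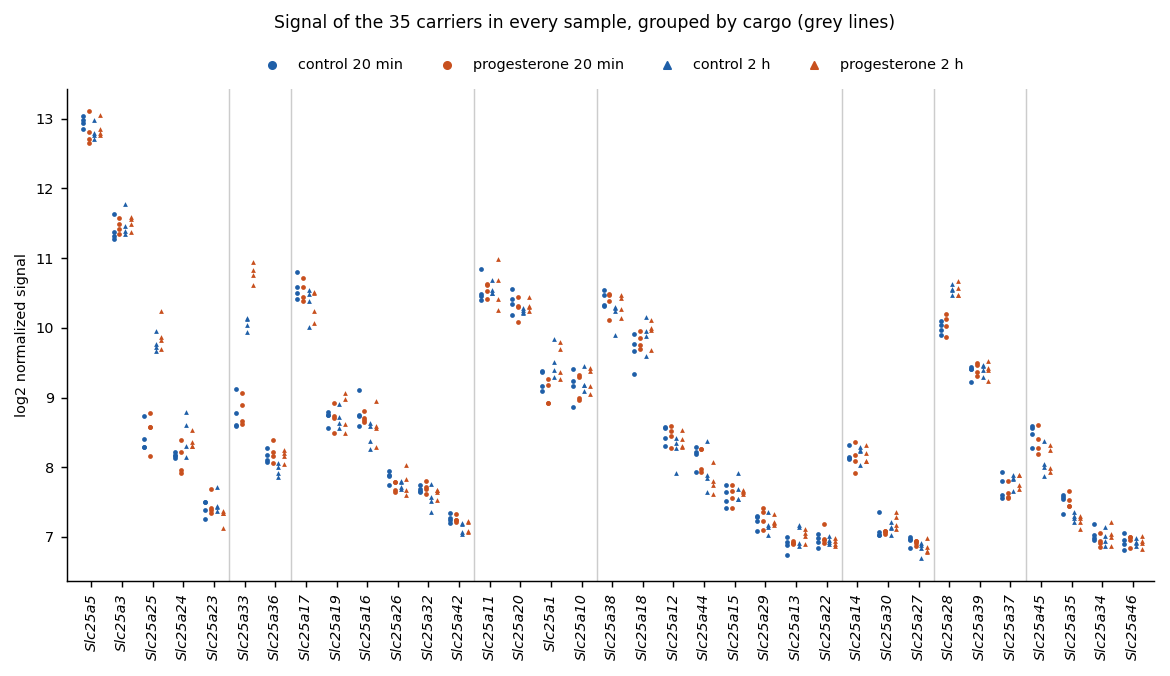
Log2 normalized signal of the 35 carriers (vertical axis) in each of the 16 samples, grouped by cargo between the grey lines; blue is control, orange progesterone, circles 20 min and triangles 2 h. Slc25a33, Slc25a25 and Slc25a28 are the carriers whose 4 controls of 2 h all lie above the 4 controls of 20 min, and Slc25a33 spans the widest range, from 8.60 to 10.95.

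Whether progesterone changes the carriers after 2 h was asked within the 4 pairs. Slc25a33 was higher with progesterone in all 4 pairs, by 0.72 on average, which is 1.65-fold. Its value in the controls was 10.04 in pair 6d, 9.94 in 19n, 10.13 in 30o and 10.14 in 15o, and in the progesterone samples 10.95, 10.83, 10.76 and 10.61 in the same order. The lowest progesterone sample lay above the highest control, and the step from control to progesterone was 0.91, 0.88, 0.63 and 0.47. As deposited, before normalization, its signal intensity was 751 to 1115 in the controls and 1427 to 1699 in the progesterone samples.

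The change of Slc25a33 had a standard error of 0.09 (95% confidence interval 0.52 to 0.93) and limma's adjusted p was 0.244 over 16848 probes, where it ranked 2 by p. It therefore missed the threshold of 0.20, and 0 of 35 carriers were called against 0.00594% of all probes. By the paired SAM that the study used, written again for this work, Slc25a33 had a q-value of 0% and was the only 1 of the 35 called, against 0.101% of all probes (17 probes). That q-value rests on only 16 sign changes of the 4 pairs, so it is coarse. With an estimate of the spread that follows the signal the adjusted p was 0.0646, with all 16 arrays in 1 fit 0.0251, and without pair 15o 0.0794. It was 0.538 without normalization, 0.898 with arrays scaled to the same median, 0.999 with a normexp background correction and 0.559 without the filter on dim probes. Without pair 6d, 19n or 30o it was 0.721 to 0.9998, and over the 4 fits that leave out a pair the change was 0.66 to 0.81. Pair 15o, which had the smallest step, was also the pair whose smooth muscle markers were 1.34 higher with progesterone. Markers of fibroblasts and mesothelium, fat and endothelium were higher there too, by 0.71, 0.60 and 0.55. Those of ciliated and secretory epithelium were at -0.28 and -0.21. In 6d, 19n and 30o the ciliated markers were at 0.35, -0.35 and -0.04 and the secretory ones at 0.06, 0.05 and 0.10. The part of these in the result was not tested.

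Slc25a36 was the next of the carriers by p. It read 8.06, 8.01, 7.92 and 7.86 in the controls (6d, 19n, 30o, 15o) and 8.15, 8.25, 8.05 and 8.21 with progesterone. The groups overlapped by a narrow margin, since the progesterone sample of 30o lay just below the control of 6d. Its change was 0.20 (SE 0.07) with a limma adjusted p of 0.9997. Both pyrimidine nucleotide carriers were thus higher in all 4 pairs, but neither passed in the main limma fit.

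Slc25a23, a carrier that exchanges ATP-Mg for phosphate and has calcium-binding domains, went the other way. Its controls read 7.71, 7.44, 7.37 and 7.42 and its progesterone samples 7.37, 7.13, 7.34 and 7.34 in the same order of pairs. All progesterone samples lay below all controls, the highest of the 4 by a narrow margin, and the change was -0.19 (SE 0.08, limma adjusted p 0.9997). It was -0.45 with a normexp background correction and -0.11 without normalization. The step was largest in 6d and 19n and close to 0 in 30o and 15o. All 4 progesterone samples lay above all 4 controls in 1 of 35 carriers, Slc25a33, against 0.849% of all probes, and below them in 1 of 35, Slc25a23, against 0.813%.

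In all 4 pairs, 5 of the 35 carriers were higher with progesterone (14.3%), against 5.03% of all probes. Beside the pyrimidine pair these were Slc25a25, a relative of Slc25a23 with the same cargo, at 0.13 (SE 0.07), Slc25a30, a relative of the uncoupling proteins, at 0.11 (SE 0.07), and Slc25a20, which imports acylcarnitines for fatty acid oxidation, at 0.08 (SE 0.07). Slc25a20 has a second, dimmer probe, whose change was -0.04. Lower in all 4 pairs was 1 of 35, Slc25a23, against 5.36%. Apart from Slc25a33, the 34 changes lay between -0.19 and 0.20 with quantile normalization alone, with limma adjusted p of 0.9997, and Slc25a36 was at 0.32 with a normexp background correction. The median over the 35 was 0.03, against 0.00 over all probes, and 25 were above 0 and 10 below. This median was smaller than the SD of 0.07 between the medians of the 4 pairs, and it was -0.00419 without pair 19n.

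**Figure D2:**
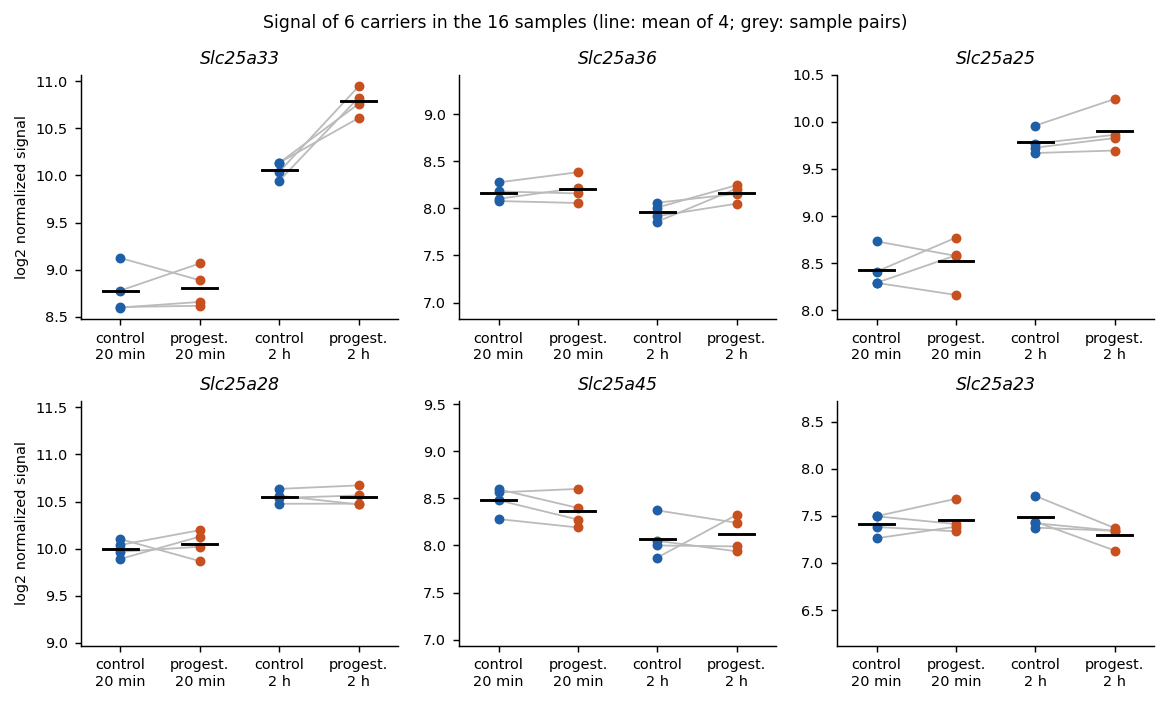
Log2 normalized signal (vertical axes, all spanning the same range of 2.6) of 6 carriers in the control (blue) and progesterone (orange) samples after 20 min and 2 h; each point is a sample, grey lines join pairs and black lines are means of 4. The 4 progesterone samples of 2 h lie above the 4 controls for Slc25a33, with 10.61 as the lowest against 10.14 as the highest control.

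By cargo, the change at 2 h was near 0 in most groups. By their brightest probes, the 4 carriers of carboxylic acids, oxoglutarate and acylcarnitine were all slightly above 0 (0.02 to 0.08). Slc25a1, which exports citrate for fatty acid synthesis, was at 0.02 (SE 0.13). Its pairs disagreed: 0.40 in 19n and -0.46 in 15o. Other kept probes were at -0.07 and 0.11 for Slc25a11, -0.04 for Slc25a20 and -0.00075 for Slc25a1. Of the 6 carriers of coenzymes, vitamins and methyl donors 5 were above 0, with Slc25a16, tied to coenzyme A, at 0.14 (SE 0.09). The 8 amino acid carriers ranged from -0.13 for Slc25a44, which takes up branched-chain amino acids, to 0.15 for Slc25a38, whose other kept probes were at 0.10 and -0.08.

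The 3 carriers of iron and glutathione were the most even at 2 h. Slc25a28 (mitoferrin-2) and Slc25a37 (mitoferrin-1), which import iron, changed by -0.01 and 0.00 (SE 0.07 each), and Slc25a39, which imports glutathione, by 0.00 (SE 0.08). The ADP/ATP and phosphate carriers Slc25a5 and Slc25a3 were at 0.06 (SE 0.09) and 0.01 (SE 0.09). The 3 relatives of the uncoupling proteins lay between -0.03 and 0.11, and the 4 members without a settled cargo between -0.06 and 0.05. The 95% confidence intervals of all 34 carriers other than Slc25a33 lay within -0.37 and 0.38.

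**Figure D3:**
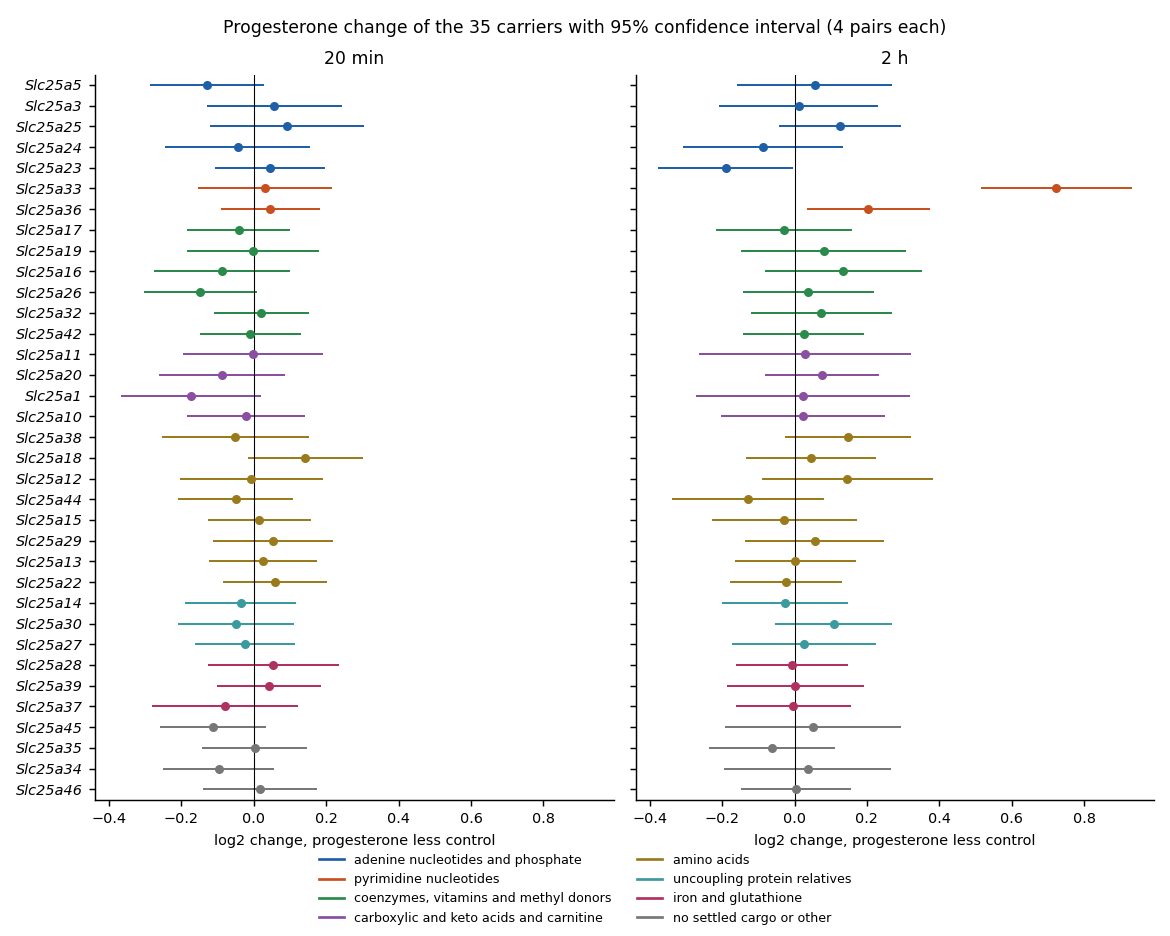
Log2 change of the 35 carriers with progesterone (horizontal axis) after 20 min (left) and 2 h (right), coloured by cargo, with points for the estimate over 4 pairs and lines for the 95% confidence interval. At 2 h Slc25a33 stands at 0.72 with an interval of 0.52 to 0.93, and the other 34 points lie between -0.19 and 0.20.

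After 20 min, progesterone and control samples did not differ in any carrier by the test. Slc25a33 read 8.78, 8.60, 9.12 and 8.60 in the controls of 27n, 26n, 12n and 22ob and 9.07, 8.66, 8.89 and 8.62 in the progesterone samples. The steps were 0.29, 0.06, -0.24 and 0.01, so the change of 0.03 (SE 0.08) was smaller than the spread between pairs, and its sign turned to -0.05 without pair 27n. None of 35 carriers was called with limma, against 0% of all probes (lowest adjusted p 0.948), although 847 probes had an unadjusted p under 0.05, none of them a carrier. Paired SAM called 1 probe at 20 min and none of the carriers.

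The 3 carriers with the smallest p at 20 min were Slc25a26, Slc25a18 and Slc25a1. Slc25a26, which imports the methyl donor S-adenosylmethionine, changed by -0.15 (SE 0.07), from 7.95, 7.89, 7.88 and 7.75 in the controls to 7.64, 7.78, 7.67 and 7.78 (27n, 26n, 12n, 22ob). It was lower in 3 of the 4 pairs, and the change was -0.09 without pair 27n. Slc25a18, a glutamate carrier, changed by 0.14 (SE 0.07), from 9.76, 9.33, 9.92 and 9.67 to 9.85, 9.69, 9.95 and 9.76. It was higher in all 4 pairs, by 0.04 to 0.36, and the change was 0.07 without pair 26n.

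Slc25a1 changed by -0.17 (SE 0.09), from 9.38, 9.17, 9.09 and 9.36 to 8.92, 8.93, 9.18 and 9.27. It was 0.02 without normalization, where the median of all probes was itself shifted by 0.13, and less that shift it was -0.11. Without pair 27n it was -0.08 and without 12n -0.26. Over the 14 alternatives the change of Slc25a26 was -0.26 to -0.00293 and that of Slc25a18 0.07 to 0.32. The values -0.00293 and 0.32 came without normalization, and less the shift of all probes they were -0.13 and 0.20. Higher in all 4 pairs at 20 min was 1 of 35 carriers, Slc25a18, against 6.26% of all probes, and lower in all 4 pairs was 0 of 35, against 6.57%. By their brightest probes, all 35 changes lay between -0.17 and 0.14. A second, dimmer probe of Slc25a3 was at 0.22 (limma adjusted p 0.948), against 0.06 for the probe used.

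Whether the effect of progesterone differs between the times was tested in a fit over all 16 arrays. The difference was 0.69 (SE 0.13, 95% confidence interval 0.41 to 0.97) for Slc25a33, where limma's adjusted p was 0.607 and the rank by p was 5 of 16848. None of the 35 carriers was called, against 0.00594% of all probes. Without pair 15o Slc25a33 was called (0.77, limma adjusted p 0.0829), but this was the only 1 of 16 alternatives with a call. In the other 15 it was not called, and over all 16 its difference was 0.59 to 0.78. Of the other carriers, Slc25a23 had the smallest p (-0.24, SE 0.10) and Slc25a26 the next (0.19, SE 0.10), both with an adjusted p of 0.999. Over the 16 alternatives these differences ran from -0.55 to -0.19 and from 0.10 to 0.32, and neither was called.

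Whether the carriers change with time in culture was asked in the control samples, in which 3 carriers rose and 1 fell from 20 min to 2 h. Slc25a25 read 8.41, 8.29, 8.73 and 8.29 after 20 min (27n, 26n, 12n, 22ob) and 9.73, 9.67, 9.96 and 9.77 after 2 h (6d, 19n, 30o, 15o). It rose by 1.35 (SE 0.11, limma adjusted p 6.63e-05), which is 2.55-fold, and the lowest sample of 2 h lay 0.94 above the highest of 20 min.

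Slc25a33 rose by 1.29 in the controls (SE 0.12, limma adjusted p 0.000126), or 2.44-fold, with 0.82 between the highest sample of 20 min and the lowest of 2 h. Slc25a28 read 9.97, 9.89, 10.04 and 10.10 after 20 min and 10.56, 10.63, 10.48 and 10.54 after 2 h. It rose by 0.55 (SE 0.07, limma adjusted p 0.000877), and its groups were 0.38 apart. Leaving out any 1 control sample kept these 3 calls, with 1.29 to 1.45 for Slc25a25, 1.23 to 1.40 for Slc25a33 and 0.52 to 0.59 for Slc25a28. The call of Slc25a28 was lost with arrays scaled to the same median (0.40, adjusted p 0.0589) and without normalization (0.28, adjusted p 0.287), where the median of all probes was shifted by -0.06 and -0.17.

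Slc25a45, a carrier whose cargo is not settled, fell by 0.41 (SE 0.11, limma adjusted p 0.0479). It read 8.48, 8.28, 8.56 and 8.60 after 20 min and 8.05, 7.87, 7.999 and 8.37 after 2 h, so that the groups overlapped through the control of 15o. The call was lost in 6 of the 8 fits that leave out a control (adjusted p 0.00916 to 0.128 over the 8), and with the progesterone samples in place of the controls (-0.24, adjusted p 0.193). It was kept with arrays scaled to the same median (-0.58, adjusted p 0.0319) and without normalization (-0.69, adjusted p 0.0349), which is -0.52 in both less the shift of all probes. Higher after 2 h were 3 of 35 carriers (8.57%) against 6.01% of all probes, and lower 1 of 35 (2.86%) against 5.33%. The share of rises among all calls depends on the scaling: 1013 of 1911 calls were rises with quantile normalization, 550 of 2098 with arrays scaled to the same median and 287 of 1821 without normalization. With the median scaling 7 carriers were called, 2 of them higher.

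Among carriers whose groups did not overlap, 3 of 35 were higher in all controls of 2 h than in all of 20 min, against 8.16% of all probes, and 2 of 35 lower, against 8.54%. The lower ones were Slc25a36 (-0.20, SE 0.07, limma adjusted p 0.115) and Slc25a38 (-0.23, SE 0.10, adjusted p 0.188), and neither passed. Other kept probes of Slc25a38 were at -0.20 and -0.01. The signals of the pyrimidine nucleotide carriers thus lay apart over time in the controls, at 1.29 for Slc25a33 and -0.20 for Slc25a36. The other 29 carriers changed by -0.34 (Slc25a16) to 0.30 (Slc25a24), and the median of the 35 was -0.01, as was that of all probes. All 6 carriers of coenzymes, vitamins and methyl donors were below 0 (-0.34 to -0.01), and none was called.

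In the progesterone samples, which are the paired partners of the controls and so no independent check of them, the same comparison gave 1.98 (SE 0.11) for Slc25a33, 1.38 (SE 0.15) for Slc25a25 and 0.49 (SE 0.08) for Slc25a28, with limma adjusted p of 4.30e-06, 0.000237 and 0.00403. This comparison was chosen after seeing the data. Slc25a1 was also called there (0.46, SE 0.13, adjusted p 0.0449), as was Slc25a35, whose cargo is not settled (-0.29, SE 0.07, adjusted p 0.022). In the controls these 2 changed in the same direction, by 0.26 and -0.23, and were not called. In all, 4 of 35 carriers (11.4%) were called higher in the progesterone samples, against 7.19% of all probes, and 1 of 35 (2.86%) lower, against 7.79%. Slc25a33 was thus the carrier with the highest change over time in these samples, while in the controls Slc25a25 was the highest.

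**Figure D4:**
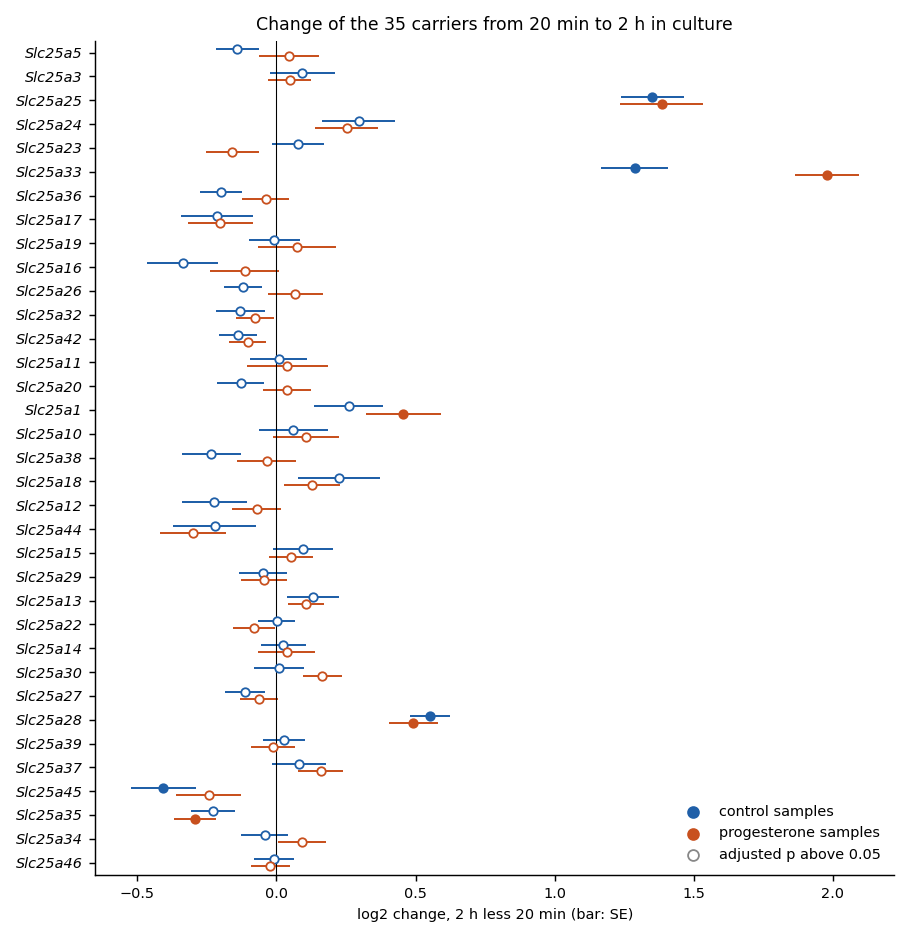
Log2 change of the 35 carriers from 20 min to 2 h (horizontal axis) in the controls (blue) and the progesterone samples (orange), with bars for the standard error and filled points for an adjusted p of at most 0.05. Slc25a33 is at 1.29 and 1.98, Slc25a25 at 1.35 and 1.38, and Slc25a28 at 0.55 and 0.49.

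Marker genes of other cell types were compared over time in the controls as well, where 6.01% of all probes were called higher and 5.33% lower. The median change was -0.58 over 9 smooth muscle genes (0 called), -0.65 over 8 genes of fibroblasts and mesothelium (1 lower), 0.43 over 8 genes of secretory epithelium (2 higher), 0.05 over 5 genes of fat (1 higher) and -0.34 over 13 stress and immediate early genes (1 higher, 5 lower). The fat gene called was Cidea, a protein of lipid droplets, which rose by 1.28 (SE 0.13, limma adjusted p 0.000323), while Adipoq, the fat hormone adiponectin, was at 0.02 (SE 0.10, adjusted p 0.922). The secretory genes called were Krt8 (0.58) and Krt18 (0.87). Of the 8 secretory genes 6 were above 0, while Ovgp1 was at -0.08 and Wfdc2 at -0.36. The summed smooth muscle markers spanned 10.35 to 11.20 in the controls of 20 min and 9.17 to 11.24 in those of 2 h, so that the groups overlapped, and those of the secretory epithelium 11.16 to 11.38 and 11.37 to 11.72. Their part in the rise of Slc25a33, Slc25a25 and Slc25a28 was not tested.

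The level of Slc25a33 over the 4 groups was 8.78 ± 0.25 in the controls of 20 min, 8.81 ± 0.21 with progesterone for 20 min, 10.06 ± 0.09 in the controls of 2 h and 10.79 ± 0.14 with progesterone for 2 h (mean ± SD, n = 4 each). The groups of 20 min did not differ beyond their spread, and each later group lay apart from the one before. The other kept probes most like it over the 16 arrays were those of Sectm1b (Pearson's r 0.967), Serpina3n (0.961), Hbegf (0.960), Sphk1 (0.959) and Tmcc3 (0.956), which are given as a description. The arrays share the normalization and fall into the 2 times, so r within a time is lower: over the 8 arrays of 2 h it was 0.919 for Tmcc3, 0.759 for Serpina3n, 0.644 for Sectm1b, 0.635 for Sphk1 and 0.480 for Hbegf, and over the 8 arrays of 20 min it was 0.865 for Hbegf, 0.809 for Sectm1b, 0.799 for Sphk1, -0.111 for Tmcc3 and -0.423 for Serpina3n. Within the family, Slc25a25 had an r of 0.951 over the 16 arrays, 0.870 at 20 min and 0.354 at 2 h, Slc25a28 had 0.889, 0.270 and -0.166, and Slc25a35 had -0.885, -0.700 and -0.514.

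Genes that make or use the cargo of Slc25a33 and Slc25a36 were taken from a list of pyrimidine nucleotide metabolism, of which 25 genes were kept. None was called with progesterone, where 0% of all probes were at 20 min and 0.00594% at 2 h, and the median at 2 h was 0.01. In the controls over time 2 were higher and 4 lower, where 6.01% of all probes were higher and 5.33% lower. Upp1, uridine phosphorylase, rose by 2.25 (SE 0.16, limma adjusted p 3.82e-05) and Uck2, a uridine-cytidine kinase, by 0.67 (SE 0.13, adjusted p 0.0124). Dctd, deoxycytidylate deaminase, fell by 0.35 and Rrm2b, a subunit of ribonucleotide reductase, by 0.39. Dhodh, the mitochondrial enzyme of pyrimidine synthesis, fell by 0.29, and Dpyd, which degrades uracil and thymine, by 0.23. The limma adjusted p of these 4 was 0.0137 to 0.0481. Dpyd was dim, with a mean of 7.01 and a detection p-value under 0.05 on 10 arrays. Genes of this and the following lists were not examined singly with other scalings.

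Of 16 genes that copy, transcribe or maintain mitochondrial DNA and RNA, 0 were higher and 6 lower over time in the controls (6.01% and 5.33% of all probes), and their median was -0.21. Polrmt, the mitochondrial RNA polymerase, fell by 0.72 (SE 0.08, limma adjusted p 0.000522), and Ssbp1, the mitochondrial single-strand binding protein, by 0.49 (SE 0.11, adjusted p 0.02). Among 10 regulators of mitochondrial biogenesis, Ppargc1a rose by 0.53 (SE 0.10, adjusted p 0.0106) and Ppargc1b fell by 0.35 (SE 0.07, adjusted p 0.0147). In 17 genes of insulin, IGF and mTOR signalling, Rheb, the activator of mTOR complex 1, rose by 0.54 (SE 0.09, adjusted p 0.00543), and Igfbp5, Tsc2 and mTOR itself (listed as Frap1) fell by 0.88, 0.26 and 0.40 (adjusted p 0.0112 to 0.0399). Of 21 genes of protein import 3 were higher and 0 lower, and of 40 genes of the respiratory chain and ATP synthase 1 and 0, with medians of 0.00 and -0.03. These counts, too, stand beside 6.01% higher and 5.33% lower of all probes.

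With progesterone, 0 genes of these lists were called at 20 min or at 2 h, where 0% and 0.00594% of all probes were, so the count sets no list apart, and their medians at 2 h lay between -0.08 and 0.01. The family includes 3 more kept genes under other symbols, Mtch1, Mtch2 and Ucp2, which were listed apart and not among the 35. Ucp2 was dim, with a mean of 6.89 and a detection p-value under 0.05 on 2 arrays. The median of the 3 at 2 h was -0.01. None was called with progesterone at either time, in the difference of the effects or over time in the controls.

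**Figure D5:**
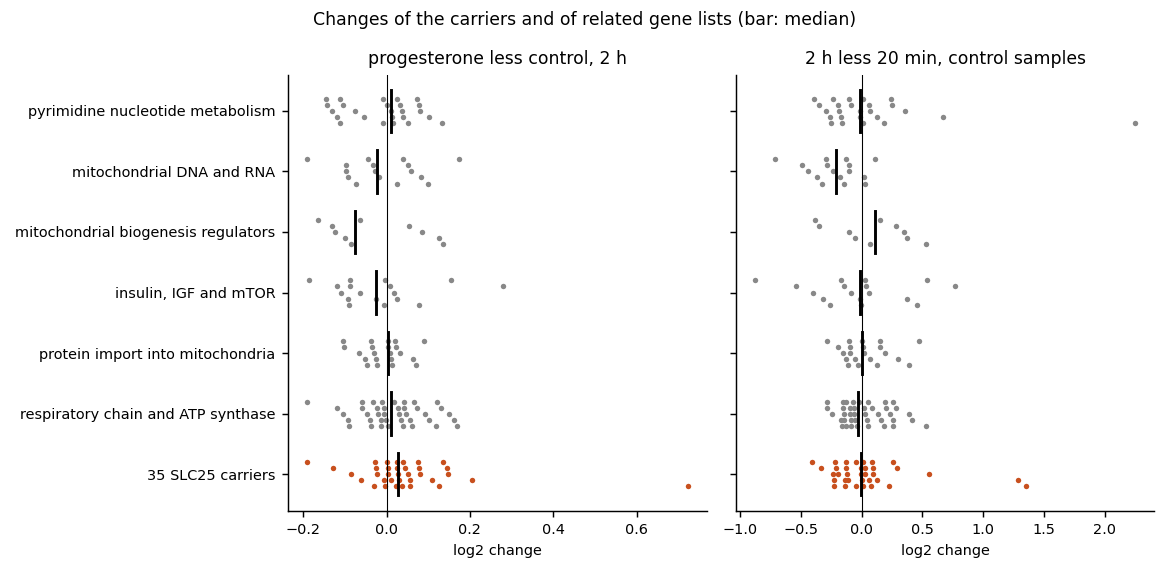
Log2 change of each gene (points, with bars for the median) in 6 related gene lists (grey) and the 35 carriers (orange), for progesterone less control at 2 h (left) and for 2 h less 20 min in the controls (right). At 2 h Slc25a33 (0.72) lies to the right of every gene of the 6 lists, and over time Upp1 (2.25) is the highest.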

How the data were processed

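RNA of 16 pooled samples of mouse fallopian tube was measured on Illumina MouseRef-8 v2 BeadChips. The authors deposited 1 signal intensity per probe and array, summarized from the beads without normalization (25697 probes), and a detection p-value that the scanner software computed from the negative controls. The authors' own normalized values and tests were not used here. Groups, times and pair codes came from the sample labels, and 0 columns of the table had no sample. An array gives no read depth, so the number of arrays limits the precision.

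Intensities were quantile-normalized over the 16 arrays and converted to log2 in R 4.3.3 with limma 3.58.1. Probes with a detection p-value under 0.5 on 13 arrays or more were kept (16848). Progesterone was compared with control within each time by lmFit and eBayes, fitting a block for each pair, and the difference of the effects over 8 pair blocks. A probe was called at an adjusted p (Benjamini-Hochberg) of 0.20 or less, after the q-value of 20% in the study's methods. The controls of 2 h and 20 min were compared without a block at 0.05. Each fit covered all kept probes. The fits were also run on simulated data with planted changes, which checked the mean estimates and not the rate of calls. Figures were drawn in Python 3.11.15 with matplotlib 3.10.9, and data.table (version 1.17.8) parsed the deposited file.

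The pairs rest on the study's methods and on label codes that occur once in each arm of a time. Deviations from the group means correlated at 0.35 to 0.55 within pairs at 20 min and at 0.00049 to 0.65 at 2 h, so that at 2 h the data do not bear out every pair. The methods give 1 tube of each mouse to each arm and also 3 animals to the 6 tubes of a sample, which cannot both hold.

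The family, the gene lists and the genes named were chosen with earlier results of these data known. Values in every sample are given for Slc25a33. Those of 2 h are given for Slc25a36, as the other carrier of its cargo, and those of the controls for carriers called over time there. In a comparison with no call, the 3 carriers of smallest p took their place. The 5 brightest and 3 dimmest carriers, those whose groups do not overlap and the 5 probes most correlated with Slc25a33 are named as well. Upstream windows are RefSeq's on GRCm38.p6, matched by symbol. Alternatives changed the scaling, the background correction, the filter, the block, the samples in the fit and the test, and left out each pair or control in turn.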

Additional observations from a re-analysis of the deposited data

Results flagged for a closer look

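Single samples lay far from the other 3 of their group in 5 of the 140 groups examined (35 carriers in 4 groups, by Dixon's test at the 95% level). Chance flags about 1 in 20 groups, which is 7 of 140. The control of 12n at 20 min was high for Slc25a14 (8.31, against 8.11 to 8.14 in the other 3) and low for Slc25a39 (9.22, against 9.41 to 9.44). The control of 26n at 20 min was high for Slc25a30 (7.35, against 7.02 to 7.07). At 2 h the control of 6d was low for Slc25a38 (9.89, against 10.24 to 10.30), and the progesterone sample of 19n was low for Slc25a23 (7.13, against 7.34 to 7.37).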

How the results depend on the processing

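At 2 h, 1 probe was called with progesterone and 0 of 35 carriers. The count over all probes was 0 without normalization, with arrays scaled to the same median, and with a detection p-value under 0.5 on at least 4 arrays or no filter. It was 3 with a detection p-value under 0.05 on at least 4 arrays and 3 with an intensity trend, 6 with all 16 arrays in a single fit and 17 with paired SAM, and in each of these 4 settings Slc25a33 was the 1 carrier called. Without the pair as a replicate block 1 probe was called, and 1 carrier, since it was Slc25a33 (adjusted p 0.151). Leaving out a pair gave 0 to 12 probes and 0 to 1 carriers. The change of Slc25a33 lay between 0.66 and 0.81 in all 14 alternatives (called in 6). At 20 min paired SAM called 1 probe. Without normalization and with median scaling, the carriers' median moved from -0.01 to 0.14 and 0.0507 and that of all probes to 0.13 and 0.0393. Slc25a1 was 0.0191 without normalization, and -0.11 less the shift of all probes in both settings. The change of Slc25a33 was -0.0546 to 0.12 when a pair was left out.

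For the difference of the effects the count over all probes, 1, was 0 without normalization, with median scaling, with the detection p-value under 0.5 on at least 4 arrays, with no filter and without the replicate block. It was 0 to 31 when a pair was left out, with 0 to 1 carriers, and the carriers' median was -0.0464 without normalization, where that of all probes was -0.0668. Over time in the controls, 1911 calls became 1164 to 1994 when a sample was left out, with 1164 without the control of 19n and 1268 without that of 30o. Without normalization and with median scaling the carriers' median was -0.22 and -0.11 and that of all probes -0.17 and -0.06, and with the latter 7 carriers were called. Slc25a33 and Slc25a25 were called in all 17 alternatives, Slc25a28 in 15 and Slc25a45 in 6. The cause of these differences was not tested, except that filters change the number of probes tested. Slc25a27 had a detection p-value under 0.05 on 1 array only, and the 4 samples a group limit the precision of all results.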
